A study of Homo sapiens with 10 samples.

Results

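The 9 genes described here encode the chemokines CXCL1, CXCL2, CXCL3, CXCL5, CXCL8 and CXCL16 and the interleukins IL1A, IL1B and IL6. The genes were taken by name, with earlier results of these data known. Of 54675 probe sets in the deposited table, 16 were annotated to 1 of these genes alone. Each gene was represented by its brightest probe set on average, which left 19775 genes. Of the 9 genes, 8 reached log2 5 on at least 2 arrays and were tested among 14929 such genes; CXCL5 did not.

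Expression was measured with Affymetrix arrays in MDA-MB-231, an established human triple-negative breast cancer line. T2 and T3 are cells isolated from xenograft tumours in SCID mice, which lack T and B lymphocytes, that regrew after SM-164 treatment, and the labels call both resistant to SM-164. T6 and T8 were obtained in the same way and are labelled sensitive. All 4 tumours had received SM-164, a Smac mimetic that antagonises IAP proteins, at 5 mg/kg intravenously on 5 days a week for 2 weeks. The fifth line is the cultured parental MDA-MB-231 cells, labelled sensitive. Each line has 2 arrays, and nothing in the labels says that they are separate cultures. Tests over arrays therefore measure a spread that may be technical. No xenograft grown without SM-164 is among the samples, so growth in the mouse, the drug and the isolation of the cells cannot be told apart.

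CXC chemokines are small secreted proteins that guide leukocytes. Those with a glutamate-leucine-arginine motif before the first cysteines, among them CXCL1, CXCL2, CXCL3, CXCL5 and CXCL8, act on CXCR2 and attract neutrophils, and CXCL8 also acts on CXCR1. CXCL16 lacks the motif, is made as a membrane protein that ADAM10 and ADAM17 can shed, and binds CXCR6. IL1A and IL1B signal through IL1R1 and IL1RAP to NF-kB, and IL6 signals through IL6R and IL6ST to STAT3. In MDA-MB-231 cells, which have constitutive NF-kB activity, CXCL8 and IL6 are known secreted products.

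Across the tumours 4 of the 5 neutrophil-attracting chemokines, CXCL1, CXCL2, CXCL3 and CXCL8, rose most among the 9 genes, while CXCL5 stayed near background. CXCL3 was 3.82-fold, CXCL1 3.24-fold, CXCL8 3.13-fold and CXCL2 2.58-fold higher in the mean of the 4 tumours than in parental cells, IL1B and IL1A rose by less, CXCL16 fell and IL6 did not pass the test. With limma and Benjamini-Hochberg adjustment over all genes tested, 6 of the 8 tested members were called higher and 1 lower at an adjusted p under 0.05. The background was high, as 42.3% of all genes tested were called, 25.5% higher and 16.8% lower. Of those calls 60.2% were higher, against 48.3% when quantile normalisation was repeated and 71.9% when array medians were centred, and under both the 7 called members had the same direction and remained called, while IL6 was -0.06 with quantile normalisation repeated. By at least log2 1, 4 of the 8 were called higher, against 1.78% of all genes. The members were chosen with earlier results of these data known, so their contrasts with all genes are a description. CXCL2, 1 of these 4, rose by 0.46 with the mean over its probe sets. The median difference was 1.05 over the 8 members and 0.0015 over all genes tested.

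**Figure D1:**
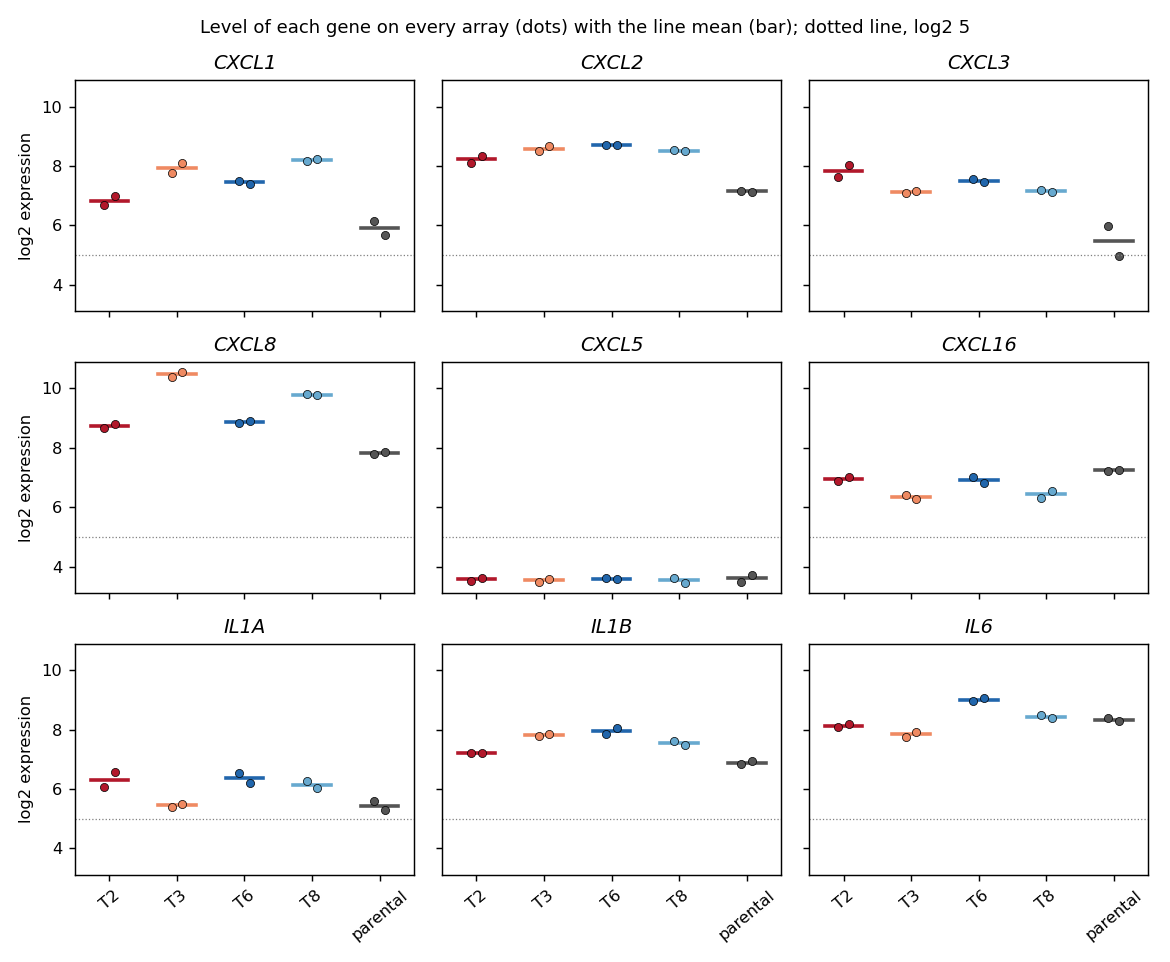
Log2 expression (vertical axis) of the probe set standing for each of the 9 genes on each array (dots) of tumours T2, T3, T6 and T8 and of parental cells; bars are line means and the dotted line is log2 5. CXCL1, CXCL2, CXCL3 and CXCL8 lie above the parental arrays on all 8 tumour arrays; the share of all genes that do so was not counted. CXCL5 lies below log2 5 throughout, and IL6 spans both sides of the parental level.

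Of the 9 genes, the CXC chemokine genes other than CXCL16 lie together on chromosome 4. They span a stretch of 358627 bases between the start of CXCL8 and the end of CXCL2 in GRCh38.p14. RefSeq places 17 genes there, of which 9 are protein-coding. CXCL8 lies at chr4:73740569-73743716, CXCL1 at chr4:73869393-73871308, CXCL5 at chr4:73995642-73998677, CXCL3 at chr4:74036589-74038689 and CXCL2 at chr4:74097040-74099195. IL1A at chr2:112773925-112784493 and IL1B at chr2:112829751-112836779 are neighbours on chromosome 2, IL6 lies at chr7:22727200-22731998 and CXCL16 at chr17:4733533-4739928. Of the 9 genes, 8 had a RefSeq promoter sequence.

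The promoters of the chromosome 4 members and of IL6 are shown because they hold letters of the kB motif, the DNA element that NF-kB binds, while the genes differed in level and in their order across the tumours. Each sequence below runs 5′ to 3′ on the gene's own strand from 100 to 21 bases before the annotated start (RefSeq, GRCh38.p14), and capitals mark the kB letters.
CXCL1 (chr4:73869293-73869372, plus strand): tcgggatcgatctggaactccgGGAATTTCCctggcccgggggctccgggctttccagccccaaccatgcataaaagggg
CXCL2 (chr4:74099216-74099295, minus strand): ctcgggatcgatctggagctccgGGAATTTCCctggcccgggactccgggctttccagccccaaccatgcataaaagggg
CXCL3 (chr4:74038710-74038789, minus strand): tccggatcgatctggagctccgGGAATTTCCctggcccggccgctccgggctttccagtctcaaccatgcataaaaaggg
CXCL8 (chr4:73740469-73740548, plus strand): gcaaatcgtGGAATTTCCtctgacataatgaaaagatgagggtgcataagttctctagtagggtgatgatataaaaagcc
CXCL5 (chr4:73998698-73998777, minus strand): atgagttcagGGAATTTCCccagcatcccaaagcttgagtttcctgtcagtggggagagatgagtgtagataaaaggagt
IL6 (chr7:22727100-22727179, plus strand): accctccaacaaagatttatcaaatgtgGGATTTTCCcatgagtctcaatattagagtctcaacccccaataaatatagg

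The letters GGAATTTCC, searched on both strands of the 300 bases from 250 before to 50 after the start, occur in 129 of 27305 promoters (0.472%, 1 promoter per gene) and in 5 of the 8 member promoters. They begin 78 bases before the start in CXCL1 and CXCL3, 77 in CXCL2, 90 in CXCL5 and 91 in CXCL8. With any base at the fourth position, as GGANTTTCC, the pattern was found in 449 promoters (1.64%). It takes in the 5 matches above, with which it overlaps, and adds IL6, where it begins 72 bases before the start. An AP-1 pattern, TGANTCA, stands in CXCL8 and IL1A and in 7.76% of all promoters. It begins 137 bases before the start in CXCL8, and 12 bases before it and at base 39 after it in IL1A. The TATA box pattern TATAAA, which 12% of all promoters hold, also stands in both genes. Its place differs, as it begins 31 bases before the start in CXCL8 and 239 bases before it in IL1A. Over the aligned promoter windows CXCL1 and CXCL3 had 82.5% identical columns, CXCL2 and CXCL3 73.8% and CXCL1 and CXCL2 72.1%, while CXCL8 had 42.6% to 44.9% with the other 4 genes. The patterns were chosen after the sequences were seen, and the promoters of CXCL1, CXCL2 and CXCL3 are alike. The counts in the members are therefore a description and no test. A match of letters describes the sequence and shows no binding.

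CXCL1 stood at log2 6.67 and 6.98 in T2, 7.76 and 8.11 in T3, 7.49 and 7.41 in T6 and 8.16 and 8.25 in T8, against 6.13 and 5.68 in parental cells. All 8 tumour arrays were above both parental arrays, and the mean of the tumours was higher by 1.69 ± 0.12 (SE, 8 arrays against 2; adjusted p = 4.27e-08 in limma). How many of all genes separate tumour from parental arrays in this way was not counted, here or for the members below. In order of CXCL1 level, T8 was followed by T3, T6, T2 and parental cells. T8 and T3 did not differ beyond their spread (adjusted p = 0.262), while each following step did (0.0296, 0.0195 and 0.000274).

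CXCL8, the most studied neutrophil attractant of the group, was measured by 2 probe sets. The brighter one read 8.67 and 8.80 in T2, 10.40 and 10.55 in T3, 8.84 and 8.92 in T6 and 9.81 and 9.78 in T8, against 7.79 and 7.87 in parental cells. T3 and T8 were far above T2 and T6, and no tumour array reached down to the parental ones. The difference between tumours and parental cells was 1.64 ± 0.06 (adjusted p = 6.09e-11), from 0.91 ± 0.08 in T2 to 2.65 ± 0.08 in T3, a 6.26-fold level. The other probe set gave 1.75 ± 0.10 over the tumours (adjusted p = 3.24e-09 over the 27826 probe sets tested, of which 38.9% were called), with 2.83 in T3 and 0.70 in T2. Of the steps in the order T3, T8, T6, T2 and parental cells, that from T6 to T2 was within the spread (adjusted p = 0.296), and the others passed (at most 5.85e-05).

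CXCL3 did not follow that order. Its arrays read 7.64 and 8.02 in T2, 7.09 and 7.14 in T3, 7.55 and 7.46 in T6 and 7.20 and 7.13 in T8, against 5.96 and 4.98 in parental cells. T2, the lowest tumour for CXCL1 and CXCL8, was the highest for CXCL3. The tumours were above parental cells by 1.93 ± 0.17 (adjusted p = 5.01e-07), although the parental arrays were 0.99 apart, so that the difference was 2.43 without parental replicate 1 and 1.44 without parental replicate 2. None of the neighbouring steps among tumours passed (adjusted p = 0.367 to 0.903), but T2 was above T3 by 0.72 ± 0.22 (adjusted p = 0.0216) and above T8 by 0.67 ± 0.22 (adjusted p = 0.0322).

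CXCL2 stood at 8.11 and 8.34 in T2, 8.50 and 8.67 in T3, 8.70 and 8.70 in T6 and 8.55 and 8.49 in T8, against 7.16 and 7.12 in parental cells. T2 was again the lowest tumour, below T6 by 0.47 ± 0.10 (adjusted p = 0.00712), T3 by 0.36 ± 0.10 (adjusted p = 0.0103) and T8 by 0.29 ± 0.10 (adjusted p = 0.0344), and T6, T3 and T8 did not differ beyond their spread (neighbouring steps, adjusted p = 0.446 and 0.675). Over the tumours CXCL2 rose by 1.37 ± 0.08 (adjusted p = 3.07e-09). This value rests on 1 probe set whose name marks it as able to bind further transcripts; the other 2 probe sets stayed between 3.15 and 4.14 on all arrays, and with the mean over all 3 the rise was 0.46. Probe sets of that kind also stood for CXCL8 and IL1A, so binding of related chemokine transcripts was not tested.

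CXCL5, in the same stretch and with the same kB letters, was near background. Its 3 probe sets read 3.21 to 3.61 on the tumour arrays and 3.23 to 3.72 on the parental arrays, so no difference was detectable.

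**Figure D2:**
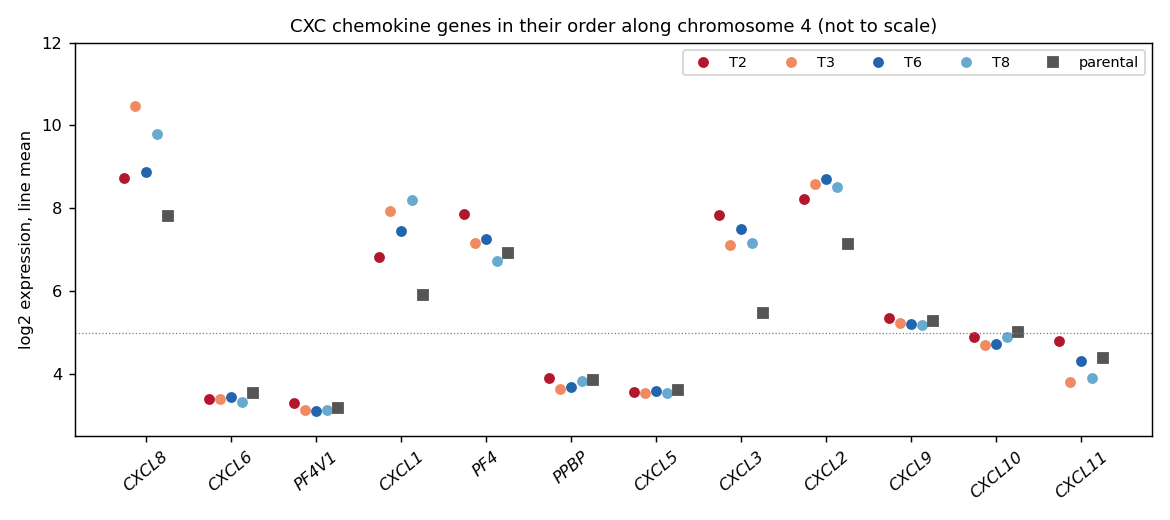
Line means of log2 expression (vertical axis) for CXC chemokine genes from CXCL8 to CXCL11 in their order along chromosome 4, in tumours T2, T3, T6 and T8 (circles) and parental cells (squares); the dotted line is log2 5. CXCL8, CXCL1, CXCL3 and CXCL2 lie above parental cells in every tumour, while CXCL6, PF4V1, PPBP and CXCL5 between them lie below log2 5. PF4, which also lies between them, has line means from 6.74 in T8 to 7.85 in T2.

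Of 11 further CXC ligand genes, 4 reached log2 5 on at least 2 arrays. PF4, a platelet chemokine in the same stretch, was the only one called, higher by 0.33 ± 0.10 (adjusted p = 0.0142), with 7.85 in T2 but 6.74 in T8 against 6.93 in parental cells, and it was not called without parental replicate 1 (0.17, adjusted p = 0.288). CXCL6, which shares the glutamate-leucine-arginine motif, read at most 3.49 on a tumour array and 3.57 on a parental one. Among the interferon-induced ligands, CXCL9 differed by -0.04 ± 0.17 (adjusted p = 0.885), and CXCL10 lay between 4.61 and 4.92 on the tumour arrays and at 4.93 and 5.09 on the parental arrays.

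CXCL16 was the member that went down, at 6.87 and 7.03 in T2, 6.40 and 6.28 in T3, 7.03 and 6.83 in T6 and 6.31 and 6.56 in T8, against 7.23 and 7.24 in parental cells. All tumour arrays were below both parental arrays, by 0.57 ± 0.10 on average (a log2 difference of -0.57; adjusted p = 0.000221). T3 (-0.90, adjusted p = 3.79e-05) and T8 (-0.80, adjusted p = 0.000101) fell against parental cells, while T2 (-0.29, adjusted p = 0.0883) and T6 (-0.30, adjusted p = 0.0671) did not pass. The step from T6 to T8 passed (adjusted p = 0.012), so for this gene T2 and T6 formed the upper pair and T3 and T8 the lower.

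IL1B, the secreted form of interleukin 1 that caspase-1 matures, stood at 7.22 and 7.22 in T2, 7.79 and 7.84 in T3, 7.84 and 8.06 in T6 and 7.61 and 7.49 in T8, against 6.83 and 6.96 in parental cells. The tumours were higher by 0.74 ± 0.08 (adjusted p = 4.45e-06), with the smallest difference in T2 (0.33 ± 0.10, adjusted p = 0.0236). Its dimmer probe set gave 1.25 ± 0.12 (adjusted p = 9.37e-07), with the same order of the lines.

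IL1A, which is active also in its cell-bound precursor form, read 6.08 and 6.56 in T2, 5.39 and 5.51 in T3, 6.53 and 6.20 in T6 and 6.26 and 6.03 in T8, against 5.61 and 5.29 in parental cells. T3 overlapped the parental arrays and differed from them by 0.00 ± 0.17 (adjusted p = 0.992), whereas T6, T2 and T8 were higher by 0.92, 0.87 and 0.70 (adjusted p of at most 0.00465). The mean rise of 0.62 ± 0.14 (adjusted p = 0.00189) was 0.46 and no longer called without parental replicate 2 (adjusted p = 0.0542), and 0.27 with the mean over both probe sets, of which the other lay below log2 5 throughout.

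IL6 moved in different directions. It stood at 8.09 and 8.18 in T2, 7.77 and 7.93 in T3, 8.96 and 9.06 in T6 and 8.49 and 8.40 in T8, against 8.38 and 8.30 in parental cells. T6 was higher than parental cells by 0.67 ± 0.09 (adjusted p = 5.01e-05) and T3 was lower by a log2 difference of -0.50 ± 0.09 (adjusted p = 0.000493), while T8 (0.10, adjusted p = 0.374) and T2 (-0.21, adjusted p = 0.0996) did not pass. The mean difference of the tumours was therefore 0.02 ± 0.07 (adjusted p = 0.868), although T3 and T6 lay 1.17 apart.

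**Figure D3:**
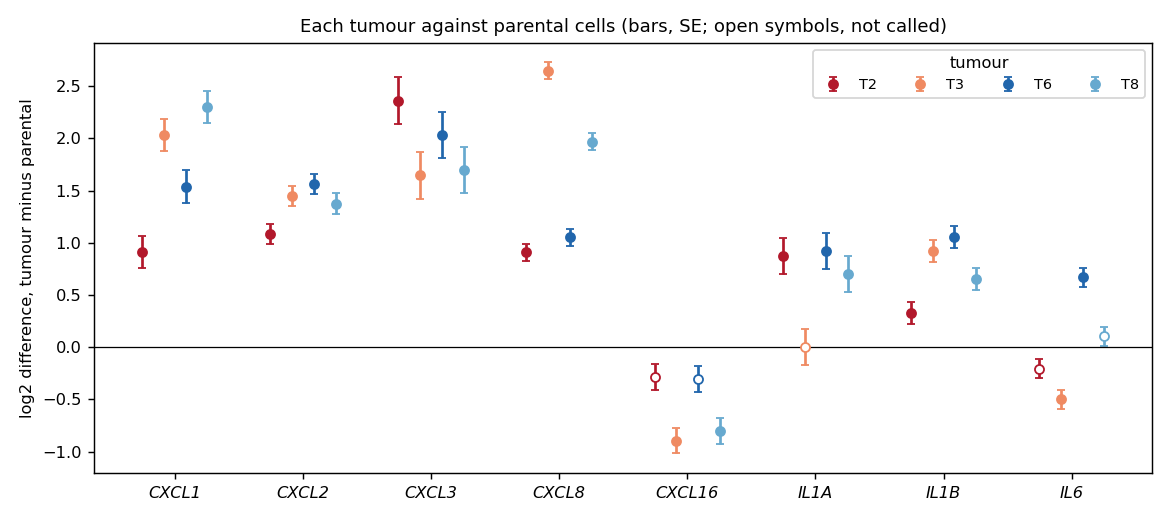
Log2 difference from parental cells (vertical axis, tumour minus parental) of the 8 tested genes in tumours T2, T3, T6 and T8; bars are SE over 2 arrays per line, filled symbols have an adjusted p under 0.05, and all tumours share the parental arrays. CXCL8 runs from 0.91 in T2 to 2.65 in T3, CXCL3 is largest in T2 (2.36), and IL6 is above 0 in T6 and below it in T3.

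By tumour, 6 members were called higher and 0 lower in T2, where 33% of all genes were called, 17.5% higher and 15.5% lower. In T3 the counts were 5 and 2, with 37.9% of genes called, 22.1% higher and 15.8% lower. In T6 they were 7 and 0, with 34.5% called, 20.7% higher and 13.7% lower. In T8 they were 6 and 1, with 43.8% called, 28.7% higher and 15.1% lower. These comparisons share the parental arrays, so their counts are not independent of each other.

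Between tumours, T2 and T3, both labelled resistant, differed in all 8 tested members, with 30.8% of all genes called. The count was 7 with array medians centred, with the mean over probe sets or with no trend in the variance prior, and 6 without T2 replicate 2, T3 replicate 1 or T3 replicate 2. CXCL8 (-1.74 ± 0.08), CXCL1 (-1.11 ± 0.15), IL1B (-0.59 ± 0.10) and CXCL2 (-0.36 ± 0.10) were lower in T2 than in T3. IL1A (0.87 ± 0.17), CXCL3 (0.72 ± 0.22), CXCL16 (0.61 ± 0.12) and IL6 (0.29 ± 0.09) were higher in T2 (adjusted p of at most 0.0229). The neighbouring genes of chromosome 4 thus differed in opposite directions between these tumours.

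T6 and T8, both labelled sensitive, differed in 5 members, with 15.1% of all genes called. IL6 (0.57 ± 0.09), CXCL16 (0.50 ± 0.12) and IL1B (0.41 ± 0.10) were higher in T6 than in T8, and CXCL8 (-0.91 ± 0.08) and CXCL1 (-0.76 ± 0.15) were lower. T2 and T6, of opposite labels, differed in 4 members, where 9.46% of all genes were called. These were CXCL1 (-0.62), CXCL2 (-0.47), IL1B (-0.73) and IL6 (-0.87), all lower in T2. T3 and T8, also of opposite labels, differed in 3 members, with 18.4% of all genes called. CXCL8 (0.68) was higher in T3, and IL1A (-0.70) and IL6 (-0.60) were lower. For T2 against T8 the count was 7, with 31.8% of all genes called, and for T3 against T6 it was 5, with 25% called.

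Resistant and sensitive tumours were compared to ask whether levels of these genes go with the response to SM-164. With the tumour as the replicate, 2 against 2, 0 of the 8 members were called, as were 0% of all genes (limma; 661 genes and 1 member had an unadjusted p under 0.05). IL6 was that member. Its 4 arrays of resistant tumours lay between 7.77 and 8.18 and its 4 arrays of sensitive tumours between 8.40 and 9.06. The parental arrays lay between them. The share of all genes that separate the classes in this way was not counted, so the ranges are a description. The IL6 difference was -0.74 ± 0.23, with a 95% interval from -1.35 to -0.12 and an adjusted p of 0.894. For the other members the interval included 0, and it was widest for CXCL8, from -1.43 to 1.96, whose resistant tumours were both the highest and the lowest of the 4. For CXCL3 it ran from -0.59 to 0.86, for CXCL1 from -1.62 to 0.73 and for IL1B from -0.90 to 0.44. With so few tumours, a p above the threshold does not show that the classes are alike.

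**Figure D4:**
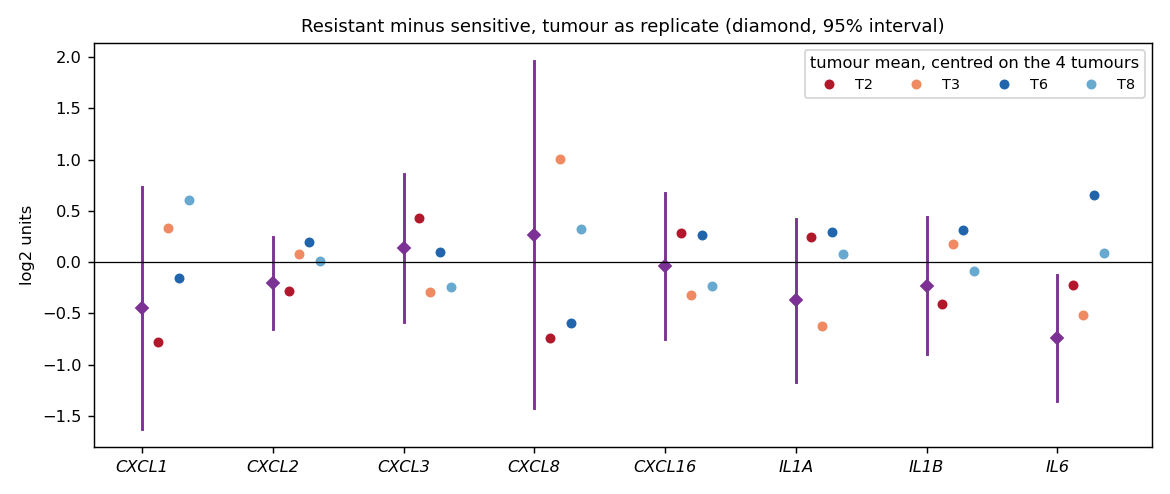
For each of the 8 tested genes, the log2 difference between resistant (T2, T3) and sensitive (T6, T8) tumours with its 95% interval, tumour as replicate (diamond and line), beside the 4 tumour means centred on their own mean (circles); the vertical axis is in log2 units. For IL6 both resistant tumours lie below both sensitive ones, and for CXCL8 the interval runs from -1.43 to 1.96.

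Over arrays, which describes these 4 tumours alone, 1 member was called higher and 4 lower in the resistant tumours, with 19% of all genes called, 4.76% higher and 14.2% lower. The higher share of those calls was 25.1%, against 47.8% when quantile normalisation was repeated and 16.2% when array medians were centred. IL6 differed by -0.74 ± 0.06 (adjusted p = 4.1e-06), and the differences of CXCL1 (-0.45 ± 0.11, adjusted p = 0.0113), IL1A (-0.37 ± 0.12, adjusted p = 0.0475) and IL1B (-0.23 ± 0.07, adjusted p = 0.042) also passed. CXCL8 was higher by 0.27 ± 0.06 (adjusted p = 0.00595), but its other probe set gave 0.03 ± 0.09 (adjusted p = 0.823). The calls of IL1A and IL1B were lost in most alternatives. IL1A remained called in 6 of 17 (adjusted p up to 0.198) and IL1B in 8 of 18 (up to 0.197), and with replicate number as a block they had an adjusted p of 0.083 and 0.0569. IL6 remained called in all 18 alternatives run, and CXCL1 was not called without T3 replicate 1 (0.0641) or T6 replicate 1 (0.0501). The call of CXCL8 was lost with array medians centred (adjusted p = 0.0511) and with the mean over its probe sets (0.126).

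Among 12 receptor genes, 8 were tested, of which 2 were called higher and 2 lower in the mean of the tumours (42.3% of all genes called; list median -0.16, all genes 0.0015). CXCR4, the receptor of CXCL12, rose by 2.10 ± 0.08, with tumour arrays between 10.9 and 11.9 and parental arrays at 9.22 and 9.50. IL6R rose by 0.72 ± 0.10, and IL6ST, its signalling partner, differed by -0.01 ± 0.09 (adjusted p = 0.937). IL1R1, the signalling receptor of IL1A and IL1B, fell by 0.83 ± 0.12 over the tumours. Its means were 6.78 in T2, 5.83 in T3, 7.11 in T6 and 6.12 in T8 against 7.29 in parental cells. Against parental cells IL1R1 did not pass in T6 (-0.18, adjusted p = 0.396). IL1RAP fell by 0.20 ± 0.07, a call that was lost without either parental array (-0.25 and -0.16) and with array medians centred (adjusted p = 0.212). CXCR2, which receives the neutrophil-attracting ligands, was near background, at 3.47 to 3.90 on the tumour arrays and 3.42 to 4.02 on the parental arrays. CXCR1 (-0.19 ± 0.09, adjusted p = 0.0834) and CXCR6 (-0.19 ± 0.10, adjusted p = 0.138) were not called.

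Of 18 genes that process interleukin 1 or pass on IL-1 and IL-6 signals, 17 were tested, 6 called higher and 4 lower (42.3% of all genes called, 25.5% higher and 16.8% lower; list median -0.04). With quantile normalisation repeated 6 were higher and 6 lower. CASP1, which matures IL1B, rose by 0.78 ± 0.14, but its parental arrays read 6.60 and 5.82, and the difference was 1.17 without parental replicate 1 and 0.39 without parental replicate 2 (adjusted p = 0.0146). The inflammasome sensor NLRP3 was called over the tumours (0.50 ± 0.11), but against parental cells it passed in T8 (1.49) and not in T2 (-0.01), T3 (0.18) or T6 (0.34, adjusted p = 0.0757). The inflammasome adaptor PYCARD fell by 0.83 ± 0.08. The sheddases of CXCL16 went opposite ways, with ADAM17 higher by 0.64 ± 0.06 and ADAM10 lower (-0.55 ± 0.06). SOCS3, a feedback inhibitor induced by IL-6 signalling, rose by 0.59 ± 0.10 over the tumours, but did not pass in T3 (0.11, adjusted p = 0.559).

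Of 20 other inflammatory cytokines, 13 were tested, 6 called higher and 4 lower (42.3% of all genes called, 25.5% higher and 16.8% lower; list median 0.13). IL18, another caspase-1 substrate, rose by 2.06 ± 0.12, and IL11, an IL-6 family cytokine, by 1.38 ± 0.05. IL7 was called higher, at 4.72 to 5.95 on the tumour arrays and 3.92 and 3.97 on the parental arrays, which lie near background, so the size of its rise is not given. CSF1 (-1.10 ± 0.07), a macrophage growth factor, IL32 (-0.73 ± 0.07) and IL15 (-0.61 ± 0.11) fell over the tumours. Against parental cells IL32 did not pass in T6 (-0.06, adjusted p = 0.632), nor IL15 in T3 (-0.28, adjusted p = 0.143).

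Regulators of NF-kB, AP-1 and the decay of cytokine mRNA were tested for 21 of 24 genes, with 9 called higher and 2 lower (42.3% of all genes called, 25.5% higher and 16.8% lower; list median 0.15). With quantile normalisation repeated 9 were higher and 4 lower, and with array medians centred 10 and 0. TNFAIP3, an NF-kB target and feedback inhibitor, rose by 1.36 ± 0.07, NFKBIZ, a nuclear cofactor needed for IL6 induction in mouse cells, by 0.91 ± 0.08, and the AP-1 genes FOS by 0.80 ± 0.09 and JUNB by 0.67 ± 0.07. ATF3 rose by 0.57 ± 0.08, but differed by 0.09 (adjusted p = 0.416) when less specific probe sets were left out. The NF-kB subunit REL rose by 0.40 ± 0.12, but differed by 0.18 (adjusted p = 0.348) without parental replicate 2. RELA, the main activating subunit, differed by 0.06 ± 0.05 (adjusted p = 0.389). Adjusted p-values of the genes called in these lists were at most 0.0381.

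**Figure D5:**
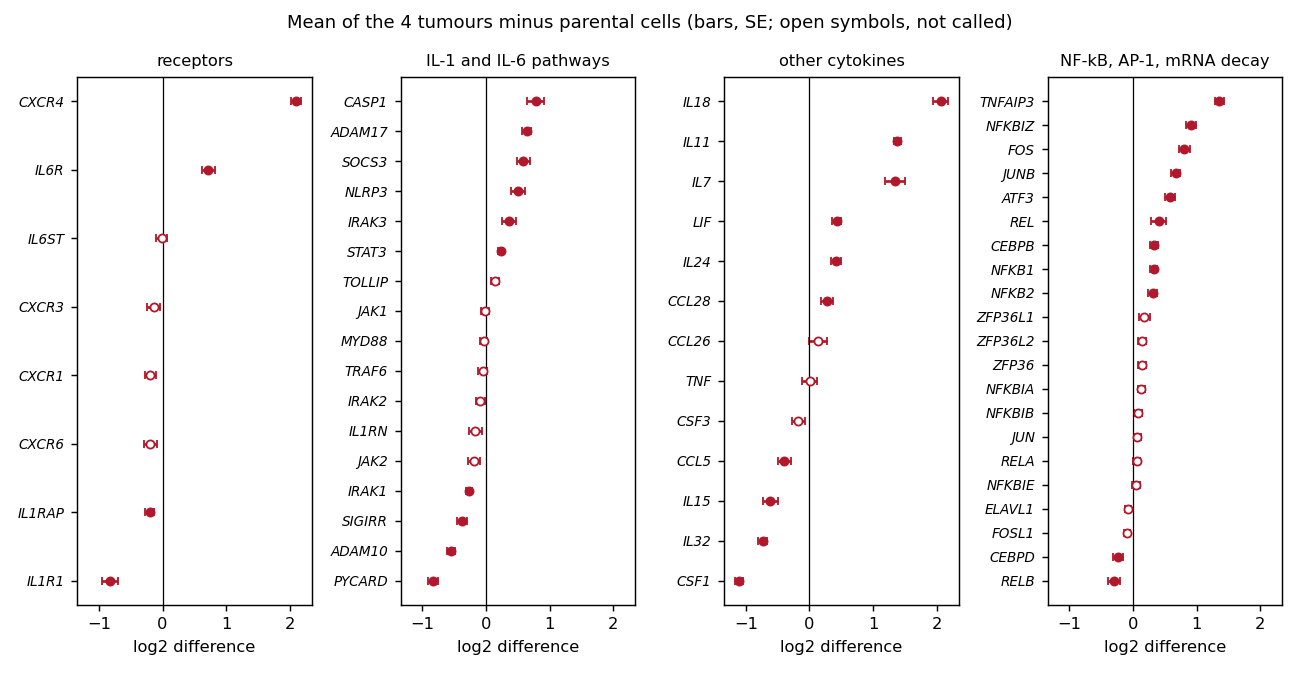
Log2 difference between the mean of the 4 tumours and parental cells (horizontal axis; bars, SE) for the tested genes of 4 lists, receptors, IL-1 and IL-6 pathways, other cytokines, and NF-kB, AP-1 and mRNA decay regulators; filled symbols have an adjusted p under 0.05. CXCR4 (2.10), IL18 (2.06) and TNFAIP3 (1.36) lie farthest right in their lists, and CSF1 (-1.10) farthest left.

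Genes most like a member were sought by the root mean square difference of the 5 line means, each profile centred on its own mean, among 14928 other genes. IL6 was matched most closely by ASB2 (0.0408), MT1M (0.11) and PTPRR (0.117). For CXCL3 the nearest were CYFIP2 (0.092), SLCO1B3 (0.107) and the phosphatase gene DUSP1 (0.151), and for CXCL8 SERPINI1 (0.178), RAP1GAP2 (0.183) and TMEM170B (0.209). CXCL1 was nearest to ADAMTS6 (0.127), KHDRBS3 (0.187) and CRADD (0.21), CXCL2 to SIGLEC15 (0.112), ABRACL (0.117) and PRSS12 (0.117), and IL1B to CFAP251 (0.105), SCD (0.113) and the IL-12 subunit gene IL12A (0.114). No member was among the 3 nearest genes of another. IL1A and CXCL16 spanned less than log2 1 and were not matched.

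The identity of the cells was checked with markers. The mesenchymal VIM (14.1 to 14.4 over all arrays), CD44 and EGFR were bright and PGR stayed below log2 5. KRT18 (13.2 to 13.6), KRT8 (11.96 to 12.75) and EPCAM (8.13 to 9.25) were also above log2 5 on every array. So were ERBB2 (8.82 to 9.28) and ESR1 (6.52 to 6.78), while CDH1 lay on both sides of it (4.47 to 5.46). The list alone therefore does not settle the identity of the cells. Of 6 neutrophil markers, S100A8, S100A9, FCGR3B and ELANE were below log2 5 on every array, none was called, and the summed linear level was 166 to 212 in tumours and 187 to 218 in parental cells. PTPRC, the pan-leukocyte marker, stayed below log2 5. Summed macrophage markers were 803 to 1879 in tumours and 1840 to 1934 in parental cells, with CD163 below log2 5 throughout and 3 of 5 tested called lower. The brightest of them, LAPTM5 (mean 9.20 in T3 and 10.66 in parental cells), made up most of the sum. Against parental cells it was not called in T8 (-0.04, adjusted p = 0.688 in limma). Summed endothelial markers were 1120 to 1853 in tumours and 879 to 928 in parental cells, and the brightest of them, ROBO4 (0.82 ± 0.06), made up most of the sum. Besides ROBO4, KDR (0.41 ± 0.10) and CDH5 were called over the tumours. CDH5 reached log2 5 only on the T8 arrays (5.23 and 5.10), so it was tested through that tumour alone. Its parental arrays read 3.57 and 3.62, near background, so the size of its difference over the tumours is not given. In T2 (-0.04) and T3 (-0.24) CDH5 was lower than in parental cells, neither called. PECAM1 (-0.18), VWF (-0.16) and TEK (-0.07) were not called, EMCN was below log2 5 throughout, and the list median was 0.12 in T2, -0.07 in T3, -0.01 in T6 and 0.26 in T8. Summed fibroblast and pericyte markers were 686 to 892 in tumours and 824 to 839 in parental cells, and lymphocyte markers 169 to 248 in tumours and 185 to 199 in parental cells. Of the 2 lymphocyte markers tested, CD3D was called higher over the tumours (0.34). Against parental cells CD3D passed in T2 (0.95) and not in T3 (-0.08), T6 (0.29) or T8 (0.21). Its call over the tumours was lost when any 1 of several arrays was left out. Cells of the host would be mouse cells, while these probe sets were made for human transcripts. The markers therefore cannot show whether host cells were present. The part of these cell types in the results was not tested. In bulk RNA, fewer cells of a type and less RNA per cell cannot be told apart.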

How the data were processed

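The values are the authors' log2 expression levels, deposited as 1 column per array. The tools affy, RMA and limma are named per the submitters' processing notes; versions are not given in the sources used here. RMA corrects background, quantile-normalises and summarises probe sets, which compresses differences near background. Arrays have no read depth, so their number and the distance from background limit precision. Array medians were 5.43 to 5.57. Probe sets were named by the platform annotation, with symbols updated through Entrez numbers to GRCh38.p14.

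Of 54675 probe sets, 62 controls were left out and 41091 had 1 gene symbol. Tests used limma 3.58.1 under R 4.3.3 (lmFit, eBayes with trend), with 1 coefficient per line over 10 arrays, or the mean of each line where the tumour was the replicate, and were checked on simulated data. Adjustment ran over all 14929 genes tested in each of 13 comparisons. Members, gene lists and comparisons were chosen with earlier results of these data known. All members and receptors could be named. From each other pathway list at most the 6 largest called differences were named. RELA, CXCL6, CXCL9, CXCL10, PF4V1 and PPBP were added after their values were seen. Alternatives covered scaling, filter, probe set choice, variance prior, replicate block and leaving out arrays or tumours. The promoter patterns were chosen after the sequences were seen. The labels do not pair samples by replicate number.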

Additional observations from a re-analysis of the deposited data

Results flagged for a closer look

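Effects against parental cells differed between tumours, by the contrast of the tumours themselves in limma, for each of the 8 tested members. The largest difference of the 6 tumour pairs was -1.74 ± 0.08 for CXCL8 (T2 minus T3, 5 pairs called) and -1.38 ± 0.15 for CXCL1 (T2 minus T8, 5 pairs called). For IL6 it was -1.17 ± 0.09 (T3 minus T6, 6 pairs called) and for IL1A -0.92 ± 0.17 (T3 minus T6, 3 pairs called). IL1B reached -0.73 ± 0.10 (T2 minus T6, 4 pairs called) and CXCL2 -0.47 ± 0.10 (T2 minus T6, 3 pairs called). CXCL3 (T2 minus T3, 2 pairs called) and CXCL16 (T2 minus T3, 4 pairs called) were higher in T2, by 0.72 ± 0.22 and 0.61 ± 0.12. Each pair was picked as the largest of 6, so its size is a description.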

How the results depend on the processing

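No alternative reversed a called difference of a member between tumours and parental cells or between resistant and sensitive tumours. Leaving out the less specific probe sets removed the tested probe sets of CXCL2, CXCL8 and IL1A, so counts of called members fell with fewer genes tested, to 4 from 7 over the tumours, 3 from 6 in T2, 4 from 7 in T6 and in T8, 3 from 5 between resistant and sensitive tumours over arrays, 5 from 8 for T2 against T3, 3 from 5 for T3 against T6 and 1 from 3 for T3 against T8. Over arrays the 5 calls between resistant and sensitive tumours were 3 without a filter and 3 with the replicate block. Repeated quantile normalisation gave 4 calls in place of 7 for T2 against T8. The cause was not tested for these 3.

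Leaving out single arrays gave 7 calls, or 6 without parental replicate 2, over the tumours, and 2 to 5 between resistant and sensitive tumours over arrays, with 2 without T3 replicate 1 and 3 without T2 replicate 1, T6 replicate 1 or 2, or T8 replicate 1 or 2. For T2 against T6 the range was 2 to 4 (2 without T2 replicate 1, T6 replicate 1 or T6 replicate 2), and for T2 against T8 2 to 7 (2 without T8 replicate 1, 4 without T2 replicate 1 or T8 replicate 2). Over all genes, 6314 calls for the tumours were 4099 without parental replicate 2, and 2837 for resistant against sensitive over arrays were 1582 without T3 replicate 1, 1559 without T6 replicate 1, 1389 without T6 replicate 2 and 1522 without T8 replicate 1. With the tumour as replicate, no alternative called a member. The labels do not say that same-numbered arrays belong together, so the replicate block was only an alternative. Deviations of same-numbered arrays correlated at -0.39 to 0.50 between lines and above 0.1 in 4 of 10 pairs of lines. They were positive for T2 with T3 (0.50) and among T6, T8 and parental cells (0.15 to 0.31). For T2 or T3 with any of those lines they were negative (-0.39 to -0.14). The source of this pattern was not tested.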
